A study of Mus musculus with 8 samples.

Results

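The genes described here are 35 mouse genes of glucose and lactate transport, glycolysis and the pentose phosphate pathway, measured by RNA sequencing of buffy coat. They were taken from a fixed list of names, without a cutoff on measured values, but the list was chosen with earlier results of these data known. All 35 were found among the 35897 genes of the deposited table after its transcripts had been summed by their GENCODE M21 gene names. PM2.5 is fine airborne particulate matter, and PBS is phosphate-buffered saline, the control. The PM2.5 group held 4 libraries, with replicate numbers 9, 17, 18 and 21, and the PBS group held 4 libraries, with numbers 4, 10, 12 and 16. All 8 were buffy coat samples of mice at 24 weeks of exposure. The strain, the age and the route of exposure are not stated in the labels used here. Whether the libraries come from 8 different animals is not stated in the labels, and the p-values therefore describe the spread among these 8 samples.

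Glycolysis splits glucose into pyruvate and yields ATP without oxygen. Mature red cells have no mitochondria and depend on it, and neutrophils and platelets use it heavily. Red cells also divert an intermediate of lower glycolysis through bisphosphoglycerate mutase, the Bpgm product, to make the bisphosphoglycerate that loosens oxygen from haemoglobin. The oxidative arm of the pentose phosphate pathway makes NADPH, which feeds glutathione reduction in red cells and the oxidative burst of neutrophils.

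Buffy coat is the layer of leukocytes and platelets that forms over the red cells when blood is spun, yet the 4 haemoglobin genes held between 82.4% and 88.7% of the expected counts of a library. Total depth lay between 72081019 and 89032794 expected counts, which left 9615115 to 12714432 for all other genes. The summed level of 19 erythroid marker genes was 22069.6 to 38617.6 CPM with PM2.5 and 18150.5 to 29432.1 CPM with PBS, and PM2.5 replicates 17 and 18 and PBS replicate 12 were the highest. CPM here means a count relative to the library's size after TMM scaling, which sets the bulk of genes equal between libraries. The summed level of 12 neutrophil markers was 28.8 to 56.2 CPM with PM2.5 and 14.1 to 27.7 CPM with PBS. Under this scaling the groups did not overlap, by a narrow margin. Of these markers the granule protease gene Elane was at 0 in all 8 libraries and Ly6g at no more than 0.147 CPM. The summed level of 10 B cell markers was 37.7 to 47.9 CPM with PM2.5 and 44 to 71.5 CPM with PBS. In such mixed blood, fewer cells of a type and less RNA per cell cannot be told apart.

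The levels per transcript length were set by a single gene. FPKM (fragments scaled by transcript length and library size) averaged 1929 for Bpgm over the 8 libraries, which placed it 10th among all genes. Bpgm held between 84.7% and 91.2% of the summed FPKM of the 35 genes in a library. Taldo1, the transaldolase of the non-oxidative pentose phosphate arm, followed at 108.5 FPKM. Gapdh, the dehydrogenase often used as a reference transcript, averaged 47.7 FPKM, the aldolase Aldoa 25.8 FPKM, the pyruvate kinase Pkm 23.8 FPKM and the glucose transporter Slc2a3 15.4 FPKM. A further 16 genes averaged between 1 and 10 FPKM, and 13 averaged under 1 FPKM. The liver and red cell pyruvate kinase Pklr was the lowest, at 0.02625 FPKM.

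**Figure D1:**
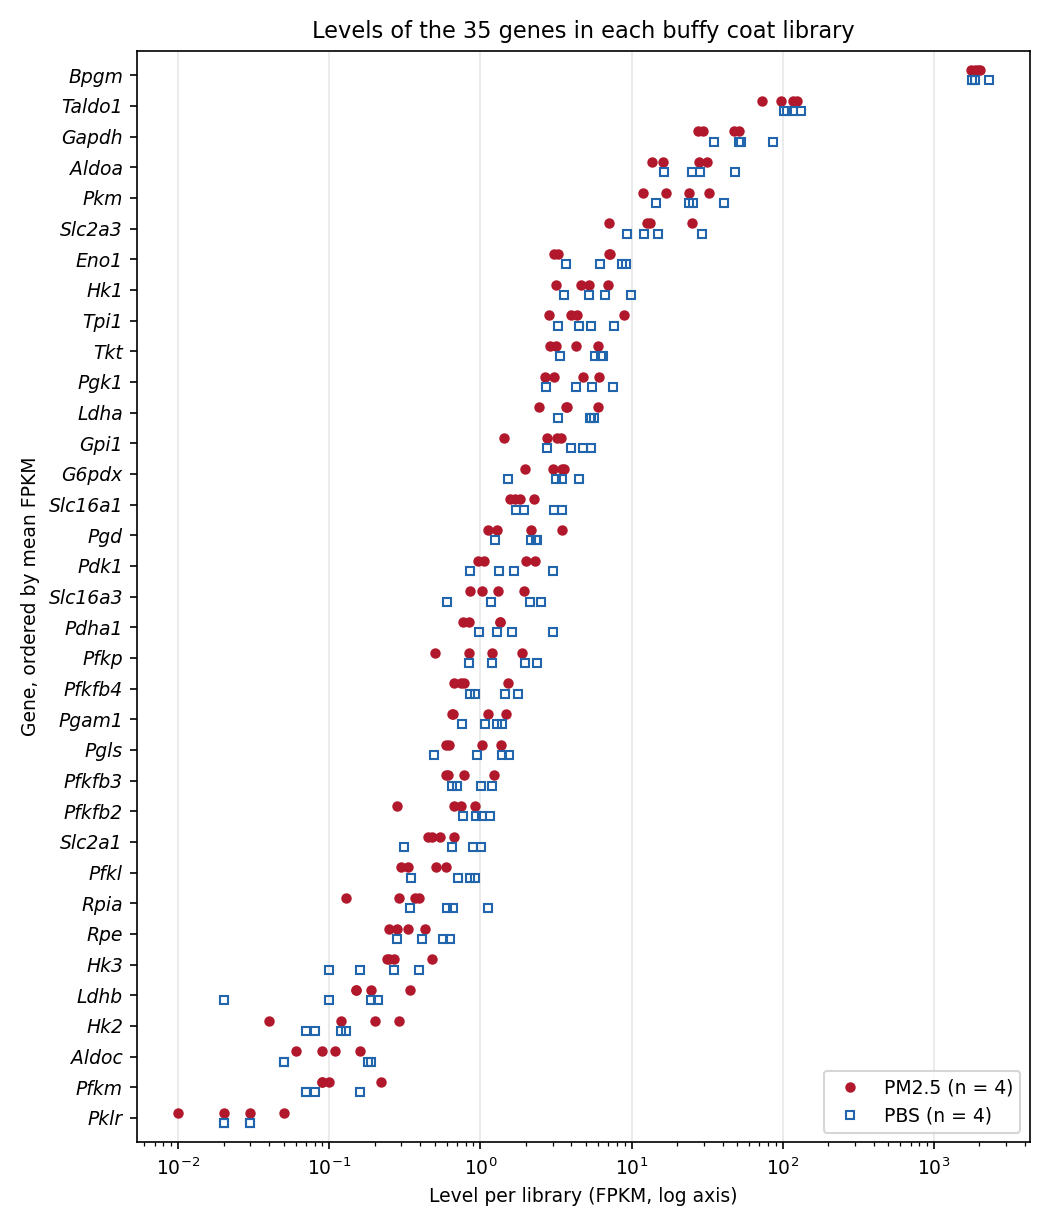
Level of each of the 35 genes in each library (FPKM, log axis), ordered by the mean over 8 libraries; filled circles are the 4 PM2.5 libraries and open squares the 4 PBS libraries. Bpgm stands at 1753 to 2320 FPKM, above every other gene shown, and the points of both groups overlap for most genes.

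On the FPKM scale Bpgm and Taldo1 also varied the least between libraries of the genes that averaged at least 1 FPKM. The highest library was 1.32 times the lowest in FPKM for Bpgm and 1.82 times for Taldo1, against a median of 3.10 times over the 22 genes that averaged at least 1 FPKM. The same ratio had a median of 1.81 over erythroid markers, 3.61 over platelet markers, 4.84 over B cell markers and 4.94 over neutrophil markers. Haemoglobin sets most of each library's total on that scale. On TMM-scaled CPM the ratio was 2.29 for Bpgm, the widest of the 22 genes, and 1.34 for Gpi1, the narrowest. Taldo1 had 1.92, against a median of 1.75 over the 22 genes.

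None of the 34 genes that passed the filter on low counts was called different between PM2.5 and PBS at an adjusted p of 0.05 (edgeR's quasi-likelihood test, Benjamini-Hochberg over 10354 genes), while 1.59% of all genes tested were called, 0.464% higher and 1.13% lower. Pklr, with 3 to 10 counts in a library, did not pass the filter. DESeq2 called none of the 34 either. At an unadjusted p under 0.05, 5 genes were higher with PM2.5 (Pgd, Hk2, G6pdx, Tpi1 and Pfkm), against 8.84% of all genes, and 2 were lower (Pfkp and Rpia), against 9.3% of all genes. The groups did not overlap for 2 genes, Pgd and Pfkp, against 9.67% of all genes.

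Some other scalings of the libraries moved the log2 fold changes of all genes together, and scaling to library totals changed the sign of most of these differences. Under TMM scaling 29 of 34 log2 fold changes were above 0, against 54.4% of all genes tested, with a median of 0.24 beside 0.045 for all genes. Under scaling to library totals 5 of 34 were above 0, with a median of -0.34 beside -0.52 for all genes. With haemoglobin genes removed and totals used after that, 13 of 34 were above 0, with a median of -0.09 beside -0.30. In these 3 scalings the median of the 34 genes exceeded that of all genes tested by 0.20, 0.19 and 0.21. With limma on FPKM, where 22 of the genes were tested, the excess was 0.04 on log2(FPKM + 1) and 0.10 on log2(FPKM + 0.1). Median-ratio scaling stayed close to TMM, with 29 of 34 above 0 and a median of 0.242 beside 0.046 for all genes. Under TMM scaling 18 of 19 erythroid markers were above 0 as well, with a median of 0.425, and 8 of 8 platelet markers, with a median of 0.33. The part of these cells in the median of the 34 genes was not tested. Log2 fold changes below are PM2.5 over PBS under TMM scaling, with the adjusted p of edgeR's quasi-likelihood test.

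**Figure D2:**
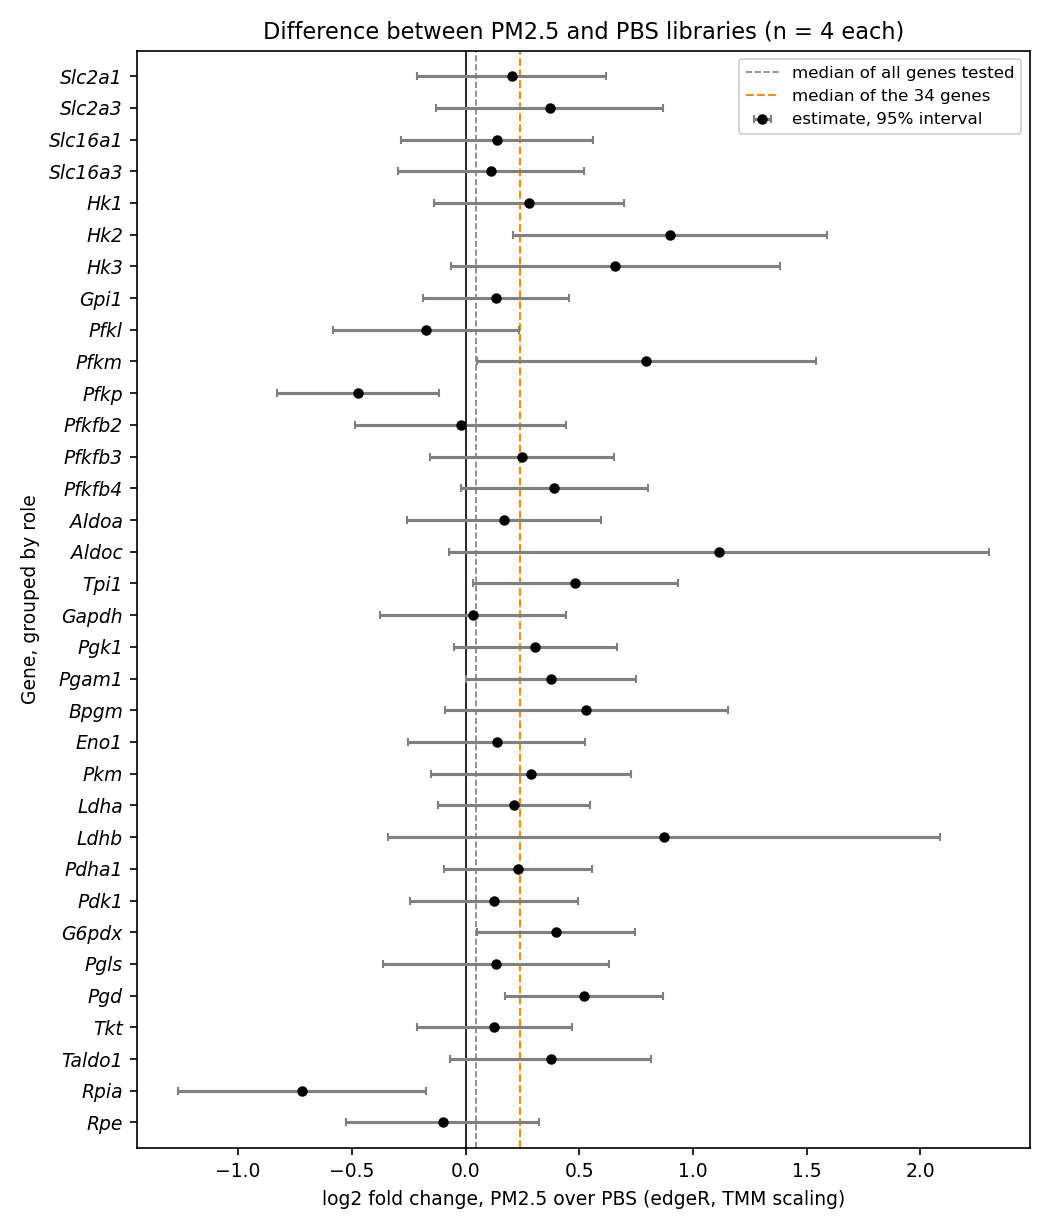
Log2 fold change of the 34 tested genes, PM2.5 over PBS under TMM scaling, grouped by role; points are edgeR estimates, bars are 95% intervals, and dashed lines mark the medians of all genes tested (0.045) and of the 34 genes (0.24). The intervals of 7 genes lie wholly on 1 side of 0 before adjustment, and no gene passed the adjusted threshold.

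**Figure D3:**
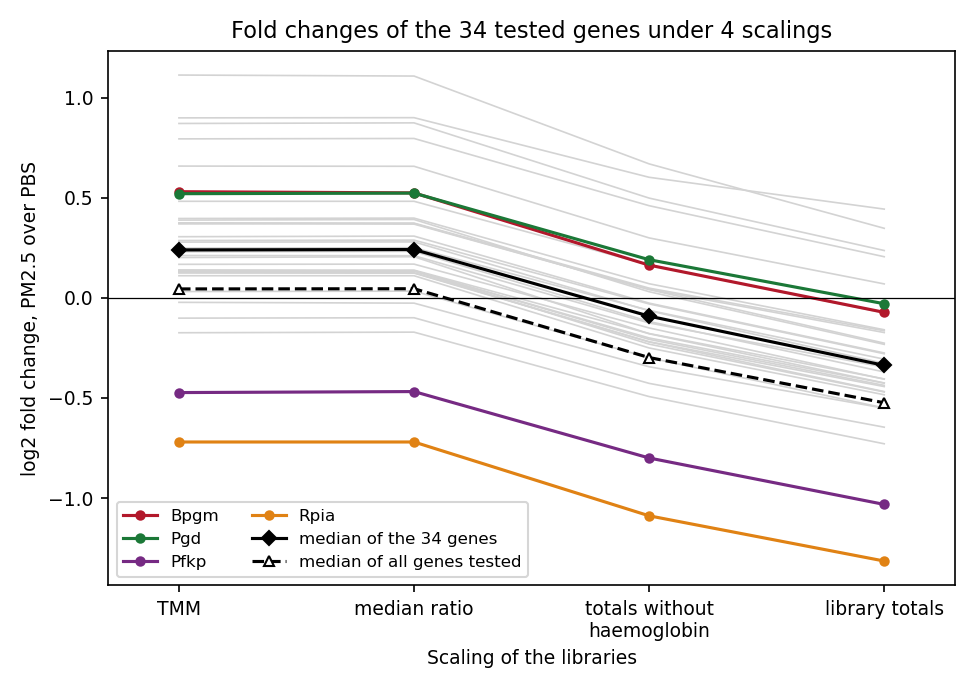
Log2 fold change, PM2.5 over PBS, of the 34 genes (gray and coloured lines) under 4 scalings of the libraries, with the median of the 34 genes (diamonds) and of all genes tested (triangles). The median of the 34 genes is 0.24 under TMM and -0.34 under library totals, and the median of all genes moves with it.

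Glucose enters blood cells through the transporters encoded by Slc2a1 and Slc2a3. Slc2a3, the high-affinity transporter of platelets, neutrophils and neurons, had 64.1, 40.7, 62.6 and 43.7 CPM in PM2.5 libraries 9, 17, 18 and 21, and 60.2, 37.5, 35.7 and 29.9 CPM in PBS libraries 4, 10, 12 and 16. PBS replicate 4 stood with the higher PM2.5 libraries, and the groups overlapped. For Slc2a3 the log2 fold change was 0.37 (SE 0.24, adjusted p = 0.411, edgeR). Slc2a3 held 95.9% ± 1.615 of the summed FPKM of this pair with PM2.5 and 95.6% ± 1.60 with PBS (mean ± SD, n = 4 each; two-sided exact permutation test, p = 0.8286).

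Platelet markers summed to 619.2 to 1011.2 CPM with PM2.5 and 524 to 952.9 CPM with PBS, and PBS replicate 4 was the highest PBS library in them, as in Slc2a3. The part of platelets in the Slc2a3 values was not tested.

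Lactate leaves cells through the carriers encoded by Slc16a1 and Slc16a3. Slc16a1 had 6.78, 10.9, 10.2 and 9.43 CPM with PM2.5 and 8.39, 5.87, 8.53 and 11.1 CPM with PBS. The groups overlapped over nearly their whole range, and the log2 fold change was 0.14 (SE 0.20, adjusted p = 0.737, edgeR). Slc16a3 averaged 2.73 ± 0.225 CPM with PM2.5 and 2.52 ± 0.796 CPM with PBS (mean ± SD, n = 4 each). Slc16a1 held 59.7% ± 7.82 of the FPKM of the pair with PM2.5 and 63.4% ± 7.41 with PBS (mean ± SD, n = 4 each; two-sided exact permutation test, p = 0.543).

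Hexokinases commit glucose to the cell by phosphorylating it, and Hk1 is the form of red cells and most tissues. Hk1 had 20.9, 16.01, 22.9 and 16.7 CPM with PM2.5 and 21.5, 14.8, 13.9 and 12.9 CPM with PBS, with PBS replicate 4 inside the PM2.5 range. Its log2 fold change was 0.28 (SE 0.20, adjusted p = 0.461, edgeR). Hk2, the inducible form of muscle and activated leukocytes, had 0.871, 0.623, 0.352 and 1.05 CPM with PM2.5 and 0.201, 0.457, 0.418 and 0.500 CPM with PBS. PM2.5 replicate 18 lay within the PBS range and the other PM2.5 libraries above it. Its log2 fold change was 0.90 (SE 0.33, adjusted p = 0.171, edgeR). Hk3, a form found in myeloid cells, averaged 0.818 ± 0.382 CPM with PM2.5 and 0.511 ± 0.244 CPM with PBS (mean ± SD, n = 4 each). Its transcripts annotated as protein-coding averaged 0.555 ± 0.510 CPM with PM2.5 and 0.484 ± 0.191 CPM with PBS, with PM2.5 replicate 18 at 0. The Hk3 log2 fold change was 0.66 (adjusted p = 0.317, edgeR) on all transcripts and 0.10 (adjusted p = 0.960, edgeR) on protein-coding ones.

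As shares of hexokinase FPKM, Hk1 took 91.2% ± 2.12 with PM2.5 and 94.7% ± 2.46 with PBS (mean ± SD, n = 4 each). The exact two-sided permutation p was 0.0571, and 0.543 after Benjamini-Hochberg adjustment over the 19 shares tested, where 4 against 4 libraries allow no p below 0.0286. Hk2 and Hk3 filled the remainder, at 2.97% ± 1.75 and 5.81% ± 1.504 with PM2.5 and at 1.66% ± 0.591 and 3.601% ± 2.13 with PBS (mean ± SD, n = 4 each). The summed level of the neutrophil markers did not overlap between the groups under TMM scaling, by a narrow margin, and its part in these shares was not tested.

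Hk1 is annotated with several first exons. The transcript with the most counts, of 4278 bases, held 47.5% ± 7.11 of Hk1 FPKM with PM2.5 and 44.1% ± 7.16 with PBS (mean ± SD, n = 4 each). Transcripts starting within 50 bases of the start of a transcript of 2916 bases held 27.3% ± 7.75 with PM2.5 and 36.1% ± 8.47 with PBS, and a transcript of 3639 bases held 17.6% ± 2.54 with PM2.5 and 13.2% ± 6.92 with PBS (mean ± SD, n = 4 each). Their exact two-sided permutation p-values were 0.543, 0.171 and 0.286. Transcripts starting upstream of all 3 were listed at 0 in all 8 libraries. Transcript values are the deposited estimates, in which reads shared by several transcripts were divided among them.

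Gpi1, which interconverts the hexose phosphates, had 6.82, 6.67, 5.35 and 7.07 CPM with PM2.5 and 6.14, 5.77, 5.28 and 6.42 CPM with PBS. The groups overlapped, and the log2 fold change was 0.13 (SE 0.15, adjusted p = 0.666, edgeR). Phosphofructokinase, the committing step of glycolysis, is built from the Pfkl, Pfkm and Pfkp subunits.

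Pfkp (chromosome 13, 6579768 to 6648777, GRCm38, minus strand) had 3.01, 2.38, 2.165 and 2.98 CPM with PM2.5 and 4.20, 4.22, 3.04 and 3.23 CPM with PBS. Every PM2.5 library lay below every PBS library, by a narrow margin, a separation that 6.64% of all genes showed in this direction. For Pfkp the log2 fold change was -0.47 (SE 0.17, 95% interval -0.83 to -0.12) and did not pass adjustment (adjusted p = 0.167, edgeR). B cell markers had a median log2 fold change of -0.39, below 0 for 10 of 10, and their part in the Pfkp values was not tested.

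The Pfkp counts came mainly from transcripts annotated as not coding for protein, which held 78.6% of them, more than in 97.5% of tested genes. A single transcript of 8681 bases, annotated with a retained intron, took 62.4% of the counts. These other transcripts summed to 2.60, 1.60, 1.21 and 2.08 CPM with PM2.5 and 3.67, 3.43, 2.70 and 2.25 CPM with PBS. Protein-coding Pfkp transcripts summed to 0.415, 0.784, 0.954 and 0.898 CPM with PM2.5 and 0.526, 0.785, 0.341 and 0.973 CPM with PBS. The coding transcripts alone and the other transcripts alone each overlapped between the groups. In a fit on protein-coding transcripts the Pfkp log2 fold change was 0.12 (adjusted p = 0.907, edgeR). That fit was chosen after the values had been seen.

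**Figure D4:**
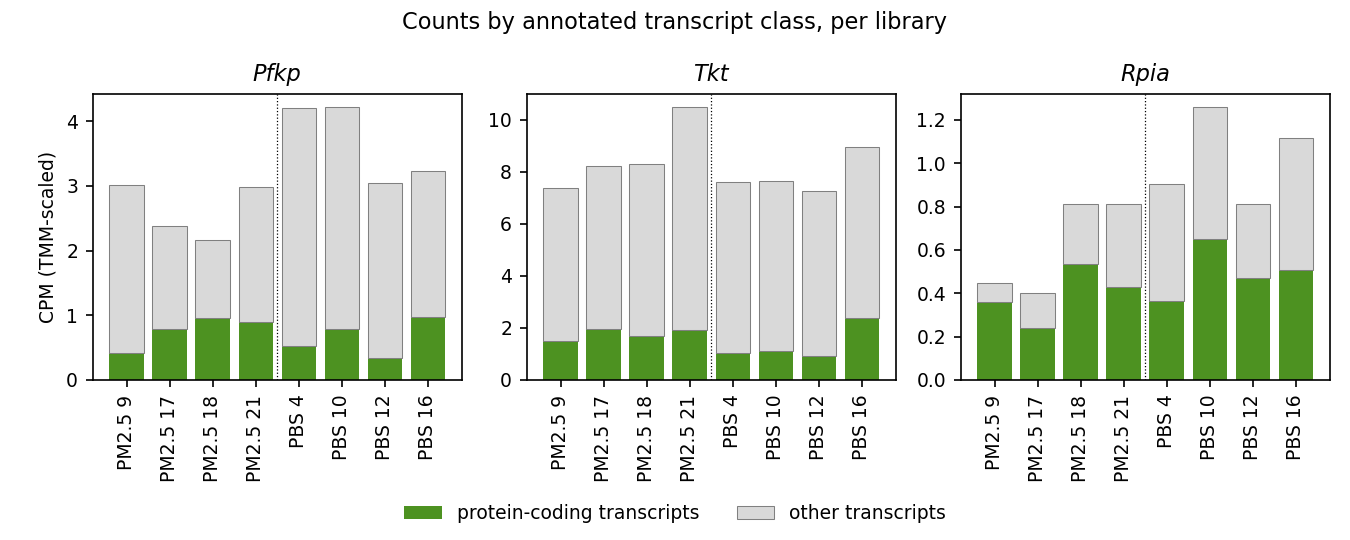
Pfkp, Tkt and Rpia in each library (CPM after TMM scaling), split into protein-coding transcripts (green) and other annotated transcripts (gray); PM2.5 libraries are left of the dotted line and PBS libraries right of it. In Pfkp the gray part is 1.21 to 2.60 CPM with PM2.5 and 2.25 to 3.67 CPM with PBS. The gray part and the green part each overlap between the groups.

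Pfkm, the muscle-type subunit that red cells also carry, had 0.348, 0.348, 0.370 and 0.249 CPM with PM2.5 and 0.265, 0.140, 0.203 and 0.145 CPM with PBS. PM2.5 replicate 21 fell below PBS replicate 4, so the groups overlapped. For Pfkm the log2 fold change was 0.80 (SE 0.36, adjusted p = 0.249, edgeR). Pfkm took 7.75% ± 1.91 of the FPKM of the 3 subunits with PM2.5 and 4.16% ± 1.53 with PBS (mean ± SD, n = 4 each; exact two-sided permutation p = 0.0571, 0.543 after adjustment). Only 15 to 29 counts in a library came from Pfkm, so its level and share are uncertain. Pfkl, the liver-type subunit, averaged 1.04 ± 0.165 CPM with PM2.5 and 1.17 ± 0.167 CPM with PBS (mean ± SD, n = 4 each).

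The bifunctional enzymes of the Pfkfb genes set the level of fructose bisphosphate that activates phosphofructokinase. Pfkfb4, the highest of the 3 among the 35 genes, had 3.05, 2.84, 3.16 and 1.84 CPM with PM2.5 and 2.71, 2.07, 1.80 and 1.70 CPM with PBS. PM2.5 replicate 21 lay inside the PBS range and the other PM2.5 libraries above it. For Pfkfb4 the log2 fold change was 0.39 (SE 0.20, adjusted p = 0.300, edgeR), and 49.2% of its counts came from transcripts not annotated as coding. On protein-coding transcripts alone it was 1.21 (SE 0.67, adjusted p = 0.442, edgeR), with PBS replicate 12 at 0 counts there. Pfkfb2 averaged 1.51 ± 0.516 CPM with PM2.5 and 1.55 ± 0.234 CPM with PBS, and Pfkfb3 2.56 ± 0.497 CPM with PM2.5 and 2.16 ± 0.518 CPM with PBS (mean ± SD, n = 4 each). Pfkfb1, which is not among the 35 genes, averaged 1.32 FPKM over the 8 libraries, above Pfkfb4 at 1.09 FPKM.

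All 8 genes of lower glycolysis had log2 fold changes above 0 under TMM scaling, from 0.03 (Gapdh) to 1.11 (Aldoc), with a median of 0.34, while under library totals 7 of the 8 were below 0, all but Aldoc, beside a median of -0.52 for all genes. Relative to the median of all genes in that scaling 7 of the 8 remained above 0, all but Gapdh. The Aldoc value rested on PM2.5 replicate 18, with 33 counts against 6 to 12 in the other PM2.5 libraries and 6 to 21 in PBS libraries, and was 0.295 without it, -0.08 without replicates 17 and 18 and -0.03 with the erythroid marker level as a covariate. Tpi1, the triosephosphate isomerase, had 10.4, 5.50, 8.96 and 5.23 CPM with PM2.5 and 6.66, 5.18, 5.16 and 4.56 CPM with PBS. PM2.5 replicates 9 and 18 were above all PBS libraries and replicates 17 and 21 among them. Its log2 fold change was 0.48 (SE 0.21, adjusted p = 0.246, edgeR), and 0.25 without PM2.5 replicate 9.

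Pgam1, the mutase that moves the phosphate of phosphoglycerate, had 1.98, 1.502, 1.52 and 1.69 CPM with PM2.5 and 1.22, 1.18, 1.17 and 1.60 CPM with PBS. PBS replicate 16 lay among the PM2.5 libraries. For Pgam1 the log2 fold change was 0.38 (SE 0.18, adjusted p = 0.276, edgeR). Near-identical copies held up to 14.5% of the counts of Pgam1 and its copies in a library, so its values are uncertain.

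Gapdh had 46.7, 50.5, 47.4 and 58.3 CPM with PM2.5 and 63.5, 41.8, 46.9 and 46.2 CPM with PBS. The highest value belonged to PBS replicate 4 and the groups overlapped. For Gapdh the log2 fold change was 0.03 (SE 0.19, 95% interval -0.38 to 0.44, adjusted p = 0.945, edgeR), and -0.55 under library totals, close to the median of all genes in that scaling. Reads of Gapdh can be divided with 177 near-identical genes, which held 2.70% to 13.0% of the joint counts.

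Aldoa averaged 30.5 ± 3.94 CPM with PM2.5 and 27.1 ± 7.08 CPM with PBS, and the phosphoglycerate kinase Pgk1 7.35 ± 0.804 CPM with PM2.5 and 5.94 ± 1.21 CPM with PBS (mean ± SD, n = 4 each). The enolase Eno1 averaged 10.1 ± 1.89 CPM with PM2.5 and 9.17 ± 1.75 CPM with PBS (mean ± SD, n = 4 each). Their log2 fold changes were 0.17, 0.31 and 0.14, and none had an unadjusted p under 0.05. Aldoa held 99.4% ± 0.343 of aldolase FPKM with PM2.5 and 99.6% ± 0.182 with PBS (mean ± SD, n = 4 each), the rest being Aldoc.

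Bpgm (chromosome 6, 34476207 to 34505613, GRCm38, plus strand) had 2228, 3648, 3972 and 2363 CPM with PM2.5 and 2032, 1734, 2869 and 1816 CPM with PBS. PM2.5 replicates 17 and 18 and PBS replicate 12 were the highest, the same libraries that were highest in erythroid markers. The log2 fold change was 0.53 (SE 0.30, adjusted p = 0.345, edgeR). It was 0.12 without PM2.5 replicates 17 and 18, 0.83 without replicates 9 and 21, and 0.04 with the erythroid marker level as a covariate.

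Set against haemoglobin within each library, Bpgm had 2.84, 2.65, 2.86 and 2.69 counts per 1000 haemoglobin counts with PM2.5 and 3.75, 2.76, 2.72 and 2.72 with PBS. Of the 8 values 7 lay between 2.65 and 2.86, and PBS replicate 4 stood above them. The groups did not differ beyond this spread (exact two-sided permutation p = 0.714). For Taldo1 the highest library was 1.97 times the lowest on this scale, for Gapdh 3.43 times and for Pkm 3.67 times, against 1.41 times for Bpgm. This scale was chosen after the values had been seen.

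The Bpgm counts were spread over a long transcript of 2220 bases with 160413 to 203397 counts and a short one of 596 bases with 16245 to 20077 counts. Because FPKM divides by length, the short transcript carried 633.3 to 861.6 FPKM beside 1094 to 1463 FPKM for the long one. Bpgm held 99.95% ± 0.0189 of the summed FPKM of Bpgm and Pgam1 with PM2.5 and 99.94% ± 0.0154 with PBS (mean ± SD, n = 4 each).

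Pyruvate kinase makes the last ATP of glycolysis. Pkm (chromosome 9, 59656368 to 59679375, GRCm38, plus strand) carries a pair of mutually exclusive exons, of which M1 is the form of adult muscle and brain and M2 that of leukocytes, platelets and dividing cells. The exons are shown because they are what separates the transcripts counted below, M1 at chr9:59675029-59675195 and M2 at chr9:59675568-59675734. Each is 167 bases long, 103 of them identical, and capitals mark the 64 that differ.
Pkm M1 exon: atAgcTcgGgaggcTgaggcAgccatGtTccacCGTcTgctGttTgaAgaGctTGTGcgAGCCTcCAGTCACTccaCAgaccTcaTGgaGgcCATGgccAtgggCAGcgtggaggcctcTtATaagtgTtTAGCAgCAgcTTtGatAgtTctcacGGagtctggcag
Pkm M2 exon: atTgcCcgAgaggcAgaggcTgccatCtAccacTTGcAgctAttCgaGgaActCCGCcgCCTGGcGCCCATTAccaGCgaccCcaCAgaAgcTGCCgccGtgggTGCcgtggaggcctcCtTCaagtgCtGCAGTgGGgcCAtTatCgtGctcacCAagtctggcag

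M2 was counted as a single transcript of 2432 bases and M1 as a single transcript of 2041 bases. Other Pkm transcripts were not sorted by exon. The M2 transcript held 96.9%, 99.0%, 95.2% and 96.8% of the FPKM of this pair with PM2.5 and 96.8%, 96.3%, 98.2% and 97.0% with PBS. The mean was 97.0% ± 1.58 with PM2.5 and 97.1% ± 0.821 with PBS (mean ± SD, n = 4 each), a difference within the spread (exact two-sided permutation p = 0.914). Pkm itself had 62.2, 38.8, 55.4 and 50.7 CPM with PM2.5 and 56.1, 38.6, 37.0 and 37.9 CPM with PBS, with PBS replicate 4 inside the PM2.5 range. Its log2 fold change was 0.29 (SE 0.21, adjusted p = 0.469, edgeR). Pklr contributed little: Pkm held 99.83% ± 0.170 of pyruvate kinase FPKM with PM2.5 and 99.89% ± 0.0394 with PBS (mean ± SD, n = 4 each).

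Ldha, the lactate dehydrogenase subunit that favours lactate formation, had 6.68, 4.84, 6.20 and 4.74 CPM with PM2.5 and 4.70, 4.81, 4.55 and 5.32 CPM with PBS. PM2.5 replicates 9 and 18 were above all PBS libraries and replicates 17 and 21 among them. For Ldha the log2 fold change was 0.21 (SE 0.16, adjusted p = 0.482, edgeR). Ldhb, the heart-type subunit, was near the detection limit, at 0.178 ± 0.0751 CPM with PM2.5 and 0.0949 ± 0.0573 CPM with PBS (mean ± SD, n = 4 each). Ldha held 94.6% ± 2.44 of the FPKM of both subunits with PM2.5 and 97.4% ± 1.54 with PBS (mean ± SD, n = 4 each; exact two-sided permutation p = 0.114).

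Pyruvate enters mitochondria through pyruvate dehydrogenase, of which Pdha1 encodes a catalytic subunit and Pdk1 an inhibiting kinase. Pdk1 had 2.91, 2.14, 3.63 and 2.55 CPM with PM2.5 and 3.09, 2.46, 2.39 and 2.34 CPM with PBS. The groups overlapped and the log2 fold change was 0.125 (SE 0.17, adjusted p = 0.732, edgeR). Pdha1 averaged 2.92 ± 0.152 CPM with PM2.5 and 2.49 ± 0.390 CPM with PBS (mean ± SD, n = 4 each).

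The oxidative pentose phosphate genes G6pdx, Pgls and Pgd encode the enzymes from glucose phosphate to pentose phosphate that yield NADPH. Pgd, the phosphogluconate dehydrogenase (chromosome 4, 149149991 to 149166771, GRCm38, minus strand), had 5.19, 3.90, 3.497 and 4.23 CPM with PM2.5 and 2.99, 3.17, 2.34 and 3.23 CPM with PBS. Every PM2.5 library lay above every PBS library, a separation that 3.02% of all genes showed in this direction. The log2 fold change was 0.52 (SE 0.17, 95% interval 0.17 to 0.87), with the smallest p of the 34 genes, and did not pass adjustment (adjusted p = 0.119, edgeR; 0.0768 with DESeq2).

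The Pgd log2 fold change stayed between 0.37 and 0.60 when each library was left out in turn. It was 0.51 on protein-coding transcripts alone and 0.77 with the erythroid marker level as a covariate (adjusted p = 0.178, edgeR), and it was -0.03 under library totals. No near-identical copy of Pgd was found. The summed level of the neutrophil markers did not overlap between the groups under TMM scaling either, by a narrow margin. Of the 8 neutrophil markers tested, 5 were called higher and 3 did not overlap singly in that scaling. In FPKM the highest of these markers, S100a8, did overlap, at 27.7 to 90.3 with PM2.5 and 17.5 to 50.8 with PBS. Of 8 monocyte markers 3 were called higher and did not overlap, and of 6 natural killer cell markers 1. Among all genes 0.464% were called higher and 3.02% did not overlap in this direction. The summed monocyte level overlapped, at 32.6 to 66.5 CPM with PM2.5 and 22.3 to 53.7 CPM with PBS. The part of these cells in the Pgd values was not tested.

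G6pdx, the glucose phosphate dehydrogenase that opens the pathway (chromosome X, 74409483 to 74429194, GRCm38, minus strand), had 6.07, 3.92, 5.40 and 5.74 CPM with PM2.5 and 4.50, 4.26, 3.39 and 3.91 CPM with PBS. PM2.5 replicate 17 lay within the PBS range and the other PM2.5 libraries above it. The log2 fold change was 0.40 (SE 0.17, adjusted p = 0.225, edgeR), and -0.16 under library totals. Pgls, the lactonase between them, averaged 0.734 ± 0.146 CPM with PM2.5 and 0.669 ± 0.150 CPM with PBS (mean ± SD, n = 4 each).

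**Figure D5:**
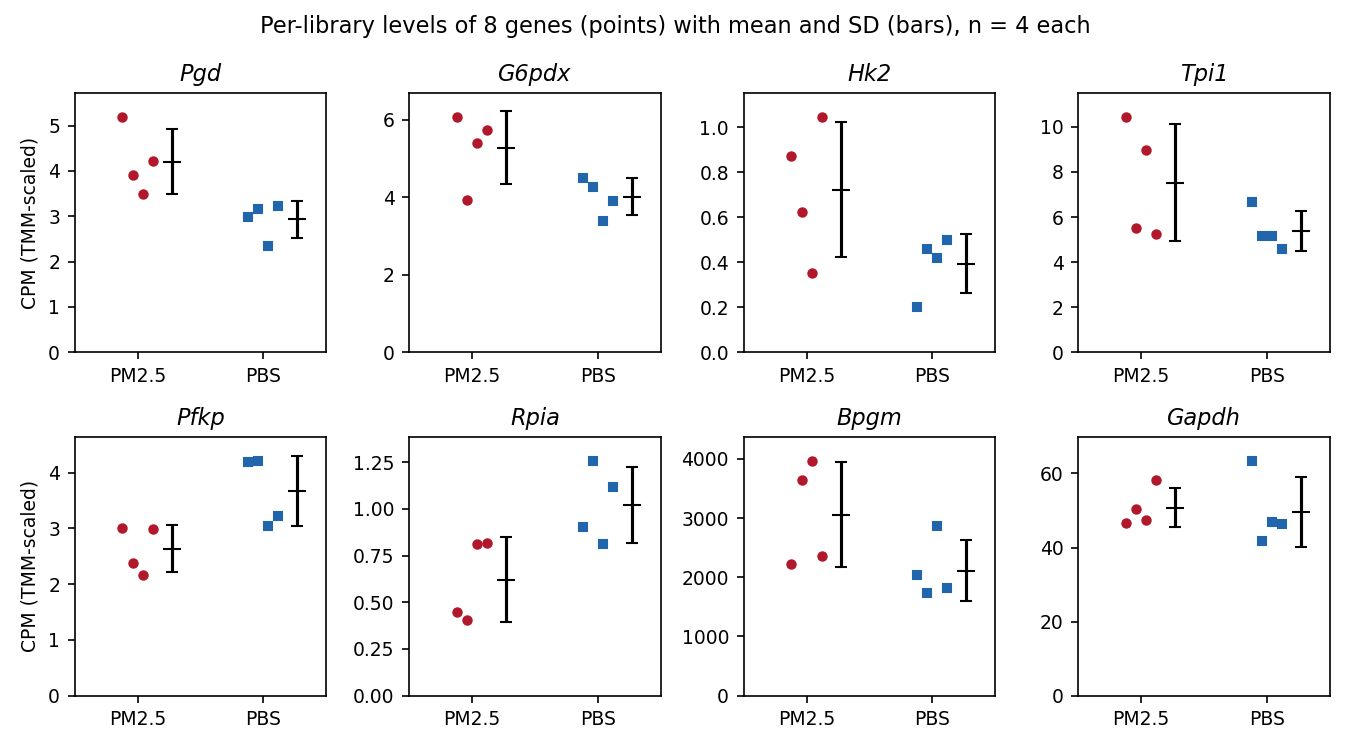
Levels of 8 genes in each library (CPM after TMM scaling, axes from 0); points are libraries, PM2.5 left and PBS right, and bars give the mean and SD (n = 4 each). The groups do not overlap for Pgd (3.497 to 5.19 with PM2.5, 2.34 to 3.23 with PBS) and Pfkp (2.165 to 3.01 with PM2.5, 3.04 to 4.22 with PBS), and overlap for the other 6.

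The non-oxidative arm returns pentose phosphates to glycolysis. Taldo1 had 103.6, 105.9, 141.5 and 109.4 CPM with PM2.5 and 82.0, 73.7, 114.6 and 84.9 CPM with PBS. PBS replicate 12, the PBS library highest in erythroid markers, was the only PBS library inside the PM2.5 range. For Taldo1 the log2 fold change was 0.37 (SE 0.21, adjusted p = 0.348, edgeR).

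Rpia, the ribose phosphate isomerase (chromosome 6, 70765720 to 70792232, GRCm38, minus strand), had 0.448, 0.403, 0.814 and 0.819 CPM with PM2.5 and 0.905, 1.26, 0.810 and 1.12 CPM with PBS. PBS replicate 12 lay just below PM2.5 replicates 18 and 21, and the other PBS libraries above all PM2.5 libraries. The log2 fold change was -0.72 (SE 0.26, adjusted p = 0.167, edgeR). Under library totals it was -1.32 (adjusted p = 0.0428, edgeR), the only call of a member in any alternative tried. In that scaling 4.66% of all genes were called lower, so 1 of 34 members is no more than the background. Transcripts not annotated as coding held 47.7% of Rpia counts, and on protein-coding transcripts alone the log2 fold change was -0.44 (adjusted p = 0.557, edgeR).

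Tkt, the transketolase, averaged 8.60 ± 1.33 CPM with PM2.5 and 7.87 ± 0.742 CPM with PBS (mean ± SD, n = 4 each). Of its counts 81.2% came from transcripts not annotated as coding, more than in 97.9% of tested genes, and a processed transcript of 1962 bases alone took 72.8%. Protein-coding Tkt transcripts averaged 1.77 ± 0.209 CPM with PM2.5 and 1.37 ± 0.682 CPM with PBS (mean ± SD, n = 4 each). The median of this share was 3.19% over the members and 6.4% over tested genes. Rpe, the epimerase, averaged 0.756 ± 0.0765 CPM with PM2.5 and 0.815 ± 0.0615 CPM with PBS (mean ± SD, n = 4 each).

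Of 59 further genes of these pathways, covering other isoenzymes, pyruvate import, glycogen turnover and regulators, 42 were tested, none was called higher and 1 was called lower, against 1.59% of all genes called. That gene was Mlxip, which encodes the glucose-sensing transcription factor MondoA. Mlxip had 3.26, 3.85, 2.55 and 3.79 CPM with PM2.5 and 6.51, 7.67, 6.14 and 4.88 CPM with PBS. The groups did not overlap and Mlxip fell with PM2.5, its log2 fold change being -0.90 (SE 0.18, adjusted p = 0.0171, edgeR). The call was lost without PM2.5 replicate 18 (log2 fold change -0.80, adjusted p = 0.0625, edgeR) and without PBS replicate 10 (-0.82, adjusted p = 0.0618, edgeR). It was also lost on protein-coding transcripts alone (-0.65, adjusted p = 0.112, edgeR) and with the erythroid covariate (-0.79, adjusted p = 0.349, edgeR), a fit in which 0 genes of all were called and 912 had an unadjusted p under 0.05.

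Txnip, a target of MondoA that restrains glucose uptake, had 29.2, 28.6, 29.1 and 25.0 CPM with PM2.5 and 35.1, 59.6, 53.0 and 29.7 CPM with PBS. Every PM2.5 library lay below every PBS library, though PBS replicate 16 by little, and the log2 fold change was -0.67 (SE 0.22, adjusted p = 0.134, edgeR; 0.0485 with DESeq2). Under library totals it was -1.21 (adjusted p = 0.00686, edgeR). Adpgk, an ADP-dependent glucokinase, averaged 1.03 ± 0.208 CPM with PM2.5 and 1.62 ± 0.244 CPM with PBS (mean ± SD, n = 4 each; log2 fold change -0.66, adjusted p = 0.0934, edgeR; 0.0439 with DESeq2). The Adpgk groups did not overlap, as in 6.64% of all genes in this direction. On protein-coding transcripts alone the Adpgk log2 fold change was -0.19.

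Pygl, the glycogen phosphorylase of liver and neutrophils, had 3.41, 3.72, 2.165 and 3.59 CPM with PM2.5 and 1.81, 1.81, 1.54 and 2.49 CPM with PBS, with only PM2.5 replicate 18 below PBS replicate 16. Its log2 fold change was 0.75 (SE 0.19, adjusted p = 0.057, edgeR; 0.0295 with DESeq2). With each library left out in turn the adjusted p ran from 0.0281 to 0.252, passing 0.05 without PM2.5 replicate 18 and without PBS replicate 16. The Pygl log2 fold change was 0.19 under library totals (adjusted p = 0.697, edgeR) and 0.41 with haemoglobin removed (adjusted p = 0.429, edgeR). Slc2a4, the insulin-responsive glucose transporter, averaged 1.99 ± 0.851 CPM with PM2.5 and 1.13 ± 0.481 CPM with PBS (mean ± SD, n = 4 each; log2 fold change 0.82, adjusted p = 0.167, edgeR), and its log2 fold change was 0.16 with the erythroid covariate. The part of neutrophils in the Pygl values was not tested.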

How the data were processed

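Per the labels' protocols, total RNA of 8 buffy coat samples was reverse transcribed from random primers, and the libraries keep the strand. The tools HISAT2 2.0.1, cutadapt 1.9.1 and bcl2fastq 2.17.1.14 and the build GRCm38 are named in the submitters' processing notes. Which tool counted, and with what strand setting, is not given in the sources used here: genes that overlap, or lie antisense to each other, may share reads. The expected counts deposited by the authors are estimated counts per transcript without normalization. The FPKM values deposited by the authors are scaled by transcript length and library.

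Here 116710 of 118783 transcripts were matched to GENCODE M21 and summed by gene name. Expected counts were rounded and tested (edgeR 4.0.16 under R 4.3.3, two-sided quasi-likelihood test, minimum count 10, minimum total 15, TMM). Benjamini-Hochberg adjustment covered all 10354 genes tested, at 0.05. The SE is the log2 fold change over the square root of F, an approximation. Shares of FPKM within enzyme families were compared by exact two-sided permutation tests, adjusted over 19 shares. Near-identical copies were annotated genes matching a member's transcripts at 90% identity over 50% of the shorter, by blastn 2.17.0. The scripts were tested on simulated data drawn from the real means, with changes placed in genes not among the lowest in level. They recovered 16.4% of 1.5-fold, 76.1% of 2-fold and 100% of 4-fold changes, with 9 false among 137 calls. Changes of 1.5-fold or less could thus mostly go uncalled.

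Alternatives were other scalings and filters, DESeq2 1.42.0, limma 3.58.1 with a trend on log2(FPKM + 1) or log2(FPKM + 0.1) for genes at 1 FPKM in 4 libraries, an erythroid covariate, each library left out, and PM2.5 replicates 17 and 18, or 9 and 21, left out. The fit on protein-coding transcripts, the scale per haemoglobin count, the ratio of highest to lowest library and the copy search were added after seeing the data. The members and lists were chosen with earlier results of these data known. Given with all values were the 8 members with the smallest p and the highest member of each role. Of the further pathway genes the 5 with the smallest p were named, Mlxip, Txnip and Pygl with all values and Adpgk and Slc2a4 as mean and SD. Values of Gapdh were added after they were seen. Erythroid markers listed were 20, of which 19 were tested.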

Additional observations from a re-analysis of the deposited data

Results flagged for a closer look

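In 112 groups of 4 values (levels and shares of the members), 9 held a library far from the other 3 of its group, where chance gives about 1 in 20. In PM2.5, Taldo1 was 141.5 CPM in replicate 18 and 103.6 to 109.4 CPM in the others. The other 8 were in PBS. In PBS replicate 4, Pkm was 56.12 CPM (37.0 to 38.58 in the others), Pdk1 was 3.09 CPM (2.344 to 2.462 in the others), the Hk2 share of hexokinase FPKM was 0.7812% (1.873% to 2.087% in the others) and Bpgm was 3.746 counts per 1000 haemoglobin counts (2.716 to 2.755 in the others). In PBS replicate 16, Pgam1 was 1.599 CPM (1.174 to 1.216 in the others), Ldhb was 0.009085 CPM (0.1212 to 0.128 in the others), the Hk3 share of hexokinase FPKM was 6.783% (2.305% to 2.681% in the others) and the share of Hk1 transcripts with the start of the 2916-base one was 48.66% (30.9% to 33.53% in the others). PBS replicate 4 was also the library with the lowest haemoglobin share, at 82.35% of its counts. What set these libraries apart was not tested.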

How the results depend on the processing

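No paired analysis was possible because the groups share no replicate numbers. Haemoglobin took most of each library, which limits the depth for genes under 1 FPKM. Scaling to library totals shifted all genes together and changed the sign of most members' values. Under median-ratio scaling 29 of 34 members were above 0, as under TMM scaling. The cause of the changes below was not tested.

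All genes called numbered 165, against 491 with library totals, 621 with no filter, 378 with DESeq2, 64 on protein-coding transcripts, 8 without PM2.5 replicates 17 and 18 and 34 to 194 with a library left out. With the erythroid covariate (edgeR) and with limma at either pseudocount 0 genes were called, although 912, 718 and 695 had an unadjusted p under 0.05. Members called were 1 with library totals (Rpia, log2 fold change -1.315) and 0 in the other alternatives. The members' median log2 fold change, 0.24, was -0.337 with library totals, -0.091 with haemoglobin removed, -0.235 with limma on log2(FPKM + 1) and -0.274 on log2(FPKM + 0.1).

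Of 371 alternative log2 fold changes of 19 named members, 307 kept their direction and side of the threshold and 63 changed sign. With library totals those that changed sign were Slc2a3 -0.226, Slc16a1 -0.47, Hk1 -0.327, Gpi1 -0.426, Pfkfb4 -0.232, Tpi1 -0.075, Pgam1 -0.164, Bpgm -0.072, Pkm -0.279, Ldha -0.346, Pdk1 -0.468, G6pdx -0.159, Pgd -0.029, Taldo1 -0.173 and Gapdh -0.55. With haemoglobin removed they were Slc16a1 -0.231, Hk1 -0.064, Gpi1 -0.2, Pkm -0.03, Ldha -0.125, Pdk1 -0.22 and Gapdh -0.299. With limma they were, at pseudocounts 1 and 0.1, Slc2a3 -0.169 and -0.182, Slc16a1 -0.296 and -0.404, Hk1 -0.262 and -0.302, Gpi1 -0.506 and -0.654, Tpi1 -0.088 and -0.112, Pgam1 -0.115 and -0.227, Bpgm -0.044 and -0.044, Pkm -0.288 and -0.3, Ldha -0.272 and -0.335, Pdk1 -0.054 and -0.073, G6pdx -0.015 and -0.003, Pgd -0.054 and -0.103, Taldo1 -0.185 and -0.187, and Gapdh -0.495 and -0.505. With the erythroid covariate they were Slc16a1 -0.267 and Gapdh -0.02, on protein-coding transcripts Pfkp 0.118, Pdk1 -0.123 and Gapdh -0.05, without PM2.5 replicates 17 and 18 Slc16a1 -0.065, and without 9 and 21 Gpi1 -0.002 and Gapdh -0.045. With a library left out, Slc16a1 ranged from -0.039 to 0.281, Pdk1 from -0.016 to 0.23 and Gapdh from -0.07 to 0.133.

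None of 209 alternative differences in shares (PM2.5 minus PBS, percentage points) passed adjustment, but the permutation test could hardly have let any pass. Its smallest possible p is 0.0286 with 4 against 4 libraries, and no smaller with libraries left out. A single share at that p would not pass adjustment over 19 shares, so no conclusion is drawn from this. Of the 209 differences, 24 changed sign. On protein-coding transcripts these were Hk3 -0.0987, Pfkp 3.828, Pfkfb3 -3.485, Pfkfb4 15.89 and Slc16a1 0.2063, and on expected counts Pfkl 2.382 and Pfkfb4 4.397. Without PM2.5 replicates 17 and 18 they were Pfkp 2.338, Aldoa 0.08921, Bpgm -0.009104 and Pkm 0.04029. With a library left out, Pfkl ranged from -5.229 to 1.308, Pfkp from -4.573 to 2.189, Pfkfb4 from -2.701 to 3.008, Bpgm from -3.604e-05 to 0.01401, Pkm from -0.1026 to 0.02312, Slc2a3 from -0.3267 to 1.078, Slc16a1 from -5.901 to 0.05639 and M2 from -0.7709 to 0.5159.

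Of 96 alternative log2 fold changes of the 5 further pathway genes, 14 passed the threshold where the original had not, 5 of Mlxip no longer did, and none changed sign. Without PM2.5 replicates 17 and 18 Mlxip had an adjusted p of 0.154 (edgeR).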
